A study of Mus musculus with 6 samples.

Results

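The common gamma-chain receptors of activated CD8 T cells, with the kinases and STAT5 proteins that carry the IL-2 signal, are described here in cells labelled Utx KO and WT. The group holds 10 genes, taken by name (Il2ra, Il2rb, Il2rg, Il7r, Il4ra, Il21r, Jak1, Jak3, Stat5a and Stat5b) of 25655 genes listed, found by matching Ensembl identifiers to symbols. All 10 were listed in every library and all 10 passed the filter on low values, which left 10590 genes for the test. Utx KO cells (3 libraries) carry a knockout of Utx, the X-linked H3K27 demethylase gene Kdm6a, and WT cells (3 libraries) do not. The labels name no allele, deleted part of the gene or driver of its deletion, and such details were not used here. Both genotypes came from spleens of female C57BL/6 mice, of unstated age. Naive cells with low CD44 and high CD62L were activated over 2 days with 10 ng/ml interleukin 2 (IL-2) and immobilised antibodies against CD28 (1 µg/ml) and the TCR beta chain (3 µg/ml), moved to new plates and held in IL-2 at the same dose for 3 more days. The cells thus spent 5 days in IL-2, and the comparison is of the genes that read this cytokine and its relatives between the genotypes.

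The common gamma chain, encoded by Il2rg, is a shared signalling subunit of the receptors for IL-2, IL-4, IL-7, IL-9, IL-15 and IL-21. Each receptor adds other chains: the IL-2 receptor has an alpha chain (CD25, Il2ra) that raises affinity and a beta chain (CD122, Il2rb) that it shares with the IL-15 receptor. JAK3 docks on the gamma chain and JAK1 on its signalling partners, such as the IL-2 receptor beta chain and the IL-7 receptor alpha chain, while the IL-2 receptor alpha chain binds no JAK. In IL-2 signalling these kinases together phosphorylate STAT5A and STAT5B, which enter the nucleus and switch on genes for growth, survival and effector function. In CD8 T cells, Il2ra is itself a STAT5 target, and Il7r is high in naive and memory cells and lower in effector cells.

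The libraries held 1619085 to 2517655 reads in Utx KO and 1827703 to 2529113 reads in WT, and no library stood apart from its own genotype (Pearson's r of log2 values across 10590 genes, 0.974 to 0.977 among Utx KO, 0.977 to 0.980 among WT and 0.959 to 0.967 between genotypes). Values are CPM, reads scaled so that all libraries have equal totals, from 3' end libraries, which read tags near the end of a transcript, so levels of different genes are compared as tag counts and not per length. Kdm6a itself was at 27.8, 39.4 and 31.5 CPM in Utx KO and at 44.3, 49.3 and 53.6 CPM in WT, a log2 fold change of −0.57 (SE 0.15, limma adjusted p = 0.0123), and tags outside the deleted part, which is not known here, check nothing. Its call was lost with DESeq2 and without Utx KO replicate 1 or WT replicates 2 or 3 (adjusted p up to 0.0985). The 5 markers of CD8 T cells (Cd3d, Cd3e, Cd3g, Cd8a and Cd8b1) summed to 1712 to 1748 CPM in Utx KO and 1407 to 1516 CPM in WT, with 3 of the 5 higher by the test (Cd3d, Cd3e and Cd8b1, log2 fold changes 0.30, 0.32 and 0.19). DESeq2 (adjusted p = 0.0514) and leaving out WT replicate 1 (0.0748) ended the call of Cd3e. The call of Cd8b1 ended in 5 of 16 alternatives: with DESeq2 and without Utx KO replicates 1 or 2 or WT replicates 1 or 2 (adjusted p up to 0.149). Markers of other cells were low: 3 for CD4 and regulatory T cells summed to 11.1 to 13.1 CPM in Utx KO and 11.5 to 17.5 CPM in WT with Cd4 at 0, 4 for B cells to 0.571 to 1.85 CPM in Utx KO and 2.76 to 5.47 CPM in WT with Cd79a and Ms4a1 at 0, and 4 for myeloid cells to at most 3.71 CPM in Utx KO and 3.69 CPM in WT with Lyz2, Itgam and Adgre1 at 0. The 2 natural killer markers reached at most 1.85 CPM in Utx KO and 1.09 CPM in WT with Ncr1 at 0, the 3 dendritic cell markers 5.14 CPM in Utx KO and 10.7 CPM in WT with Flt3 at 0, and the 3 erythroid markers 3.09 CPM in Utx KO and 0 CPM in WT with Hbb-bs at 0. The part of these markers in the results was not tested. In bulk RNA, fewer cells of a type and less RNA per cell cannot be told apart.

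Utx KO cells had more RNA for the IL-2 receptor alpha chain and the IL-7 receptor chain, less for the shared gamma chain and for JAK1, and more for STAT5B, while RNA for the IL-4 receptor chain overlapped between genotypes and did not pass the test. The calls of Il2ra, Il2rg and Jak1 held in all 16 alternatives, while that of Il7r was lost in 4 of 16 and that of Stat5b in 7 of 16. The alternative that summed Jak3 with an overlapping gene, Insl3, changed the values of no other gene and so could not test their calls. Of the 10 genes, 3 were higher (Il2ra, Il7r and Stat5b) and 2 were lower (Il2rg and Jak1) at an adjusted p under 0.05, while of all 10590 tested genes 10.8% were called, 5.28% higher and 5.51% lower. On recovered reads edgeR called 5 of the 10 genes (12.5% of all genes it tested), limma-voom 4 (10.7%) and DESeq2 3 (5.2%). Among the 6098 tested genes whose mean CPM lay between those of the lowest and the highest of the 10, 12.2% were called. The 3 Utx KO libraries lay wholly above or wholly below the 3 WT libraries for 7 of the 10 genes, against 26.5% of all tested genes. The changes were moderate: the log2 fold changes of the called members ran from −0.34 to 0.60, beside a median size of 0.59 over all 1142 called genes, and the median over the 10 was −0.05 against 0.01 over all tested genes. Every level and its spread are shown in the plot of CPM by library.

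**Figure D1:**
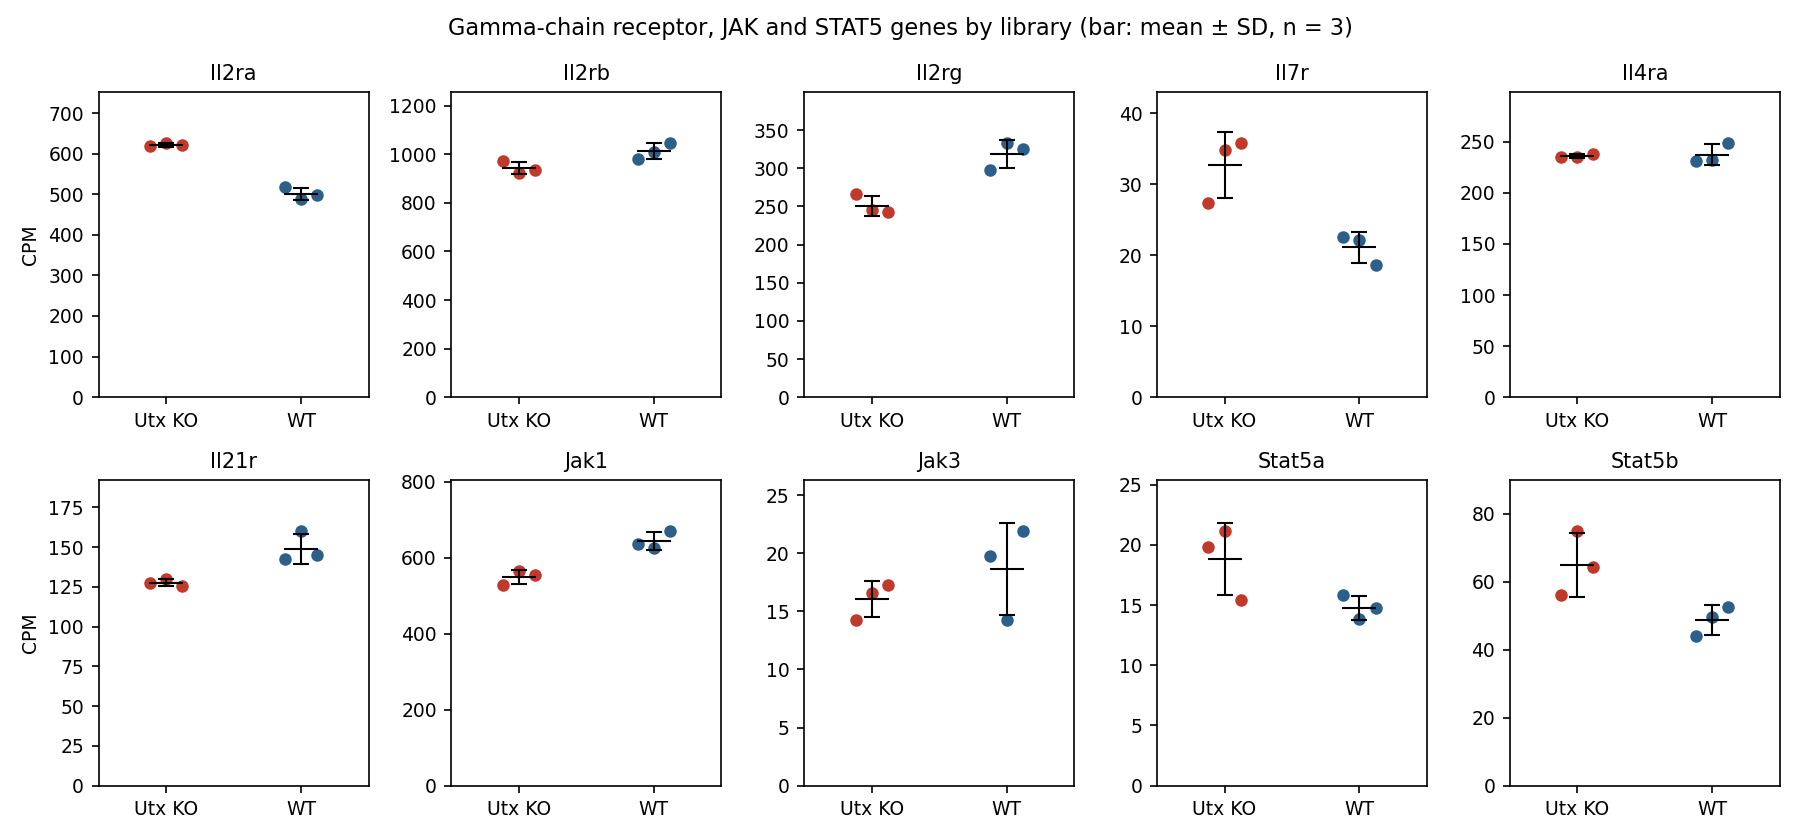
CPM of the 10 genes in each library, Utx KO (red) left of WT (blue), with the mean ± SD of 3 libraries in black and each axis starting at 0. Il2ra, Il7r and Stat5b lie wholly higher in Utx KO, Il2rb, Il2rg, Il21r and Jak1 wholly lower, and Il4ra, Jak3 and Stat5a overlap.

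Il2ra (ENSMUSG00000026770, chromosome 2, 11642807 to 11693193 on the plus strand of GRCm38) had 618, 627 and 620.1 CPM in the Utx KO libraries and 518, 487 and 499 CPM in the WT libraries, in the order of replicates 1, 2 and 3, as for every gene below. All 3 Utx KO libraries lay above all 3 WT libraries, and within a genotype they differed little. The means were 622 ± 4.30 CPM in Utx KO and 501 ± 15.4 CPM in WT (SD, n = 3 each). The gene rose with a log2 fold change of 0.31 (SE 0.05, limma adjusted p = 0.000158), a fitted rise of 24.0% with a 95% interval of 15.2% to 33.5%. Il2ra rose by about as much as the CD8 T cell markers Cd3d (0.30) and Cd3e (0.32) and by more than Cd3g (0.16), Cd8a (0.18) and Cd8b1 (0.19). Cd3g and Cd8a did not pass the test (limma adjusted p of 0.305 and 0.0923). The part of those markers in this result was not tested.

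Il2rb (ENSMUSG00000068227, chromosome 15, 78479256 to 78495271 on the minus strand), the beta chain shared by the IL-2 and IL-15 receptors, was the most abundant of the 10 genes in both genotypes. It was at 971, 924 and 937 CPM in Utx KO and at 981, 1009 and 1047 CPM in WT. The groups did not overlap, but the difference did not pass the test (log2 fold change −0.10, SE 0.05, limma adjusted p = 0.180). The fitted fold of Utx KO over WT was 0.932, with a 95% interval of 0.874 to 0.995 before any correction for multiple tests.

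Il2rg (ENSMUSG00000031304, chromosome X, 101264378 to 101268255 on the minus strand), the gamma chain itself, was at 266, 245 and 242 CPM in Utx KO and at 297, 333 and 325 CPM in WT. Every Utx KO library lay below every WT library. The gene fell by 0.34 on the log2 scale (SE 0.07, limma adjusted p = 0.00113), to 251 ± 13.1 CPM in Utx KO against 318.5 ± 18.8 CPM in WT (SD, n = 3 each), so Il2ra and Il2rg changed in opposite directions. A gene model on the same strand, Gm20489, shares exons with Il2rg and 35.3% of the 50-nt pieces at its transcript ends, and was listed at 0 in all 6 libraries.

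Il7r (ENSMUSG00000003882, chromosome 15, 9505788 to 9530176 on the minus strand), the alpha chain of the IL-7 receptor, was at 27.4, 34.8 and 35.8 CPM in Utx KO and at 22.5, 22.1 and 18.6 CPM in WT. Utx KO replicate 1 was the lowest of its group and still above all WT libraries. Its log2 fold change of 0.60 (SE 0.17, limma adjusted p = 0.0232) was the largest of the 10, and it rests on 58 to 69 reads per Utx KO library and 34 to 57 per WT library. The call was lost with DESeq2 (adjusted p = 0.211) and without Utx KO replicate 2 (0.0944), Utx KO replicate 3 (0.0929) or WT replicate 3 (0.0945), while the log2 fold change stayed between 0.52 and 0.72 over 16 alternatives, whose lowest adjusted p was 0.0118.

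The promoters of the 3 receptor genes that changed are printed here because 2 alpha chains (Il2ra and Il7r) rose and the shared chain (Il2rg) fell. The windows run from 250 bases before to 50 bases after each RefSeq start in GRCm38.p6, 5′ to 3′ on the strand of the gene. RefSeq gave windows for 9 of the 10 genes, 11 windows in all, and the missing entry was Il2rb. Capitals mark matches on either strand to the STAT motif TTCNNNGAA, known as GAS, to the RUNX motif TGTGGT and to the FOXO motif TGTTTAC.
Il2ra, chr2:11642542-11642841, plus strand: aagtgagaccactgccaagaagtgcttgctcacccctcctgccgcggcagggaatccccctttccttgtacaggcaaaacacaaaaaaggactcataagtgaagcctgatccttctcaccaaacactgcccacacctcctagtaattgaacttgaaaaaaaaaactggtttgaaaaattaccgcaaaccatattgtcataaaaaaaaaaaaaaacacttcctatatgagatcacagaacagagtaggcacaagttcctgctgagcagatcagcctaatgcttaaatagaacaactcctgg
Il7r, chr15:9529827-9530126, minus strand: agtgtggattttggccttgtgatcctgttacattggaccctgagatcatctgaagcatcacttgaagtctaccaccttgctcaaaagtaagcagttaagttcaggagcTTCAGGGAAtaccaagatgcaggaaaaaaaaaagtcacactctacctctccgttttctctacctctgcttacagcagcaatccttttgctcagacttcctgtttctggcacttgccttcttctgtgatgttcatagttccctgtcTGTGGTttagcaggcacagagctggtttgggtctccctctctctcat
Il2rg, chrX:101268206-101268505, minus strand: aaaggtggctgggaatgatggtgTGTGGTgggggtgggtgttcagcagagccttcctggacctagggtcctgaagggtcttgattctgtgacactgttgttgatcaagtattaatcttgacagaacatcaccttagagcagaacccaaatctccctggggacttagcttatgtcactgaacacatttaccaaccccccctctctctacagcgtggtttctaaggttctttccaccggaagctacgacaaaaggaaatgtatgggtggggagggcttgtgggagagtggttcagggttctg

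The Il2ra window held none of the 3 motifs. In the Il7r window the GAS letters TTCAGGGAA began 142 bases before the RefSeq start, and TGTGGT began at base 4 counted from that start. The Il7r gene in GENCODE reaches 9530176, beyond the end of this window at 9530126, so the window lies wholly inside that gene model. In the Il2rg window TGTGGT began 227 bases before the start. Over the 9 genes, GAS letters occurred in 1 (Il7r), RUNX letters in 4 (Il2rg, Il7r, Il21r and Stat5a) and FOXO letters in 1 (Il21r), where they overlapped the RUNX match. Counted by window, 1 of the 11 windows of these genes held GAS letters, 4 RUNX letters and 1 FOXO letters. Of all 32851 windows of this length, 8.3% held GAS letters, 16.8% RUNX letters and 3.65% FOXO letters. A match describes letters in this window and marks no bound site, and no match says only that the letters are not there.

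The partner chains of the gamma chain in the IL-4 and IL-21 receptors lie next to each other on chromosome 7. Il4ra (ENSMUSG00000030748, 125552120 to 125579474) was at 236, 235 and 238 CPM in Utx KO and at 231, 232 and 249 CPM in WT, with overlapping groups. Its log2 fold change was −0.01 (limma adjusted p = 0.974), and the 95% interval of the fold ran from 0.904 to 1.10. An exon of the gene model Gm44876 overlaps Il4ra on the opposite strand. Il21r (ENSMUSG00000030745, 125603429 to 125633570) was at 127.5, 130.2 and 125 CPM in Utx KO and at 142, 159.9 and 145 CPM in WT. Its groups did not overlap, but it did not pass the test (log2 fold change −0.22, SE 0.08, limma adjusted p = 0.0969, and 0.0868 to 0.381 over 16 alternatives).

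Jak1 (ENSMUSG00000028530, chromosome 4, 101152367 to 101265282 on the minus strand), the kinase of the gamma chain's signalling partners, was at 528, 564 and 555 CPM in Utx KO and at 637, 624 and 669 CPM in WT. All Utx KO libraries lay below all WT libraries. The gene fell by 0.23 on the log2 scale (SE 0.05, limma adjusted p = 0.00463), to 549 ± 19.0 CPM in Utx KO against 643 ± 23.1 CPM in WT (SD, n = 3 each). That is a fitted fold of 0.854, with a 95% interval of 0.792 to 0.920, and the call held in all 16 alternatives. An exon of Raver2 overlaps Jak1 on the opposite strand.

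Jak3 (ENSMUSG00000031805, chromosome 8, 71676296 to 71690575 on the plus strand), the kinase of the gamma chain, was at 14.3, 16.6 and 17.3 CPM in Utx KO and at 19.8, 14.3 and 21.9 CPM in WT, with overlapping groups (log2 fold change −0.19, limma adjusted p = 0.666). The longest Jak3 transcript ends at base 71690575, where Insl3, a hormone gene on the same strand (71689214 to 71690575), also ends, and 49.8% of the 50-nt pieces at the ends of Jak3 transcripts occur in Insl3. Insl3, known as a hormone of the testis, was listed at 69.9, 70.8 and 81.5 CPM in Utx KO and at 72.0, 78.8 and 71.1 CPM in WT, above Jak3 in every library. Shorter Jak3 transcripts end at bases 71688558 and 71688556, before Insl3 starts, so tags of those ends lie outside Insl3. For tags of the shared stretch, which of the 2 genes they came from cannot be told apart. The sum of both was 90.1 ± 7.69 CPM in Utx KO and 92.6 ± 0.761 CPM in WT (SD, n = 3 each), and with the 2 genes summed the log2 fold change was −0.04 (95% interval −0.24 to 0.16, limma adjusted p = 0.864). That sum was chosen after the values were seen.

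The paralogs Stat5a and Stat5b stand close together on chromosome 11, on opposite strands. Stat5b (ENSMUSG00000020919, 100780731 to 100850724, minus strand) was at 56.0, 74.8 and 64.2 CPM in Utx KO and at 43.9, 49.8 and 52.5 CPM in WT. The lowest Utx KO library lay just above the highest WT library. It rose by the test (log2 fold change 0.40, SE 0.13, limma adjusted p = 0.0436), to 65.0 ± 9.43 CPM in Utx KO against 48.7 ± 4.41 CPM in WT (SD, n = 3 each). The call sat at the threshold: it was lost in 7 of 16 alternatives, namely with a pseudocount of 0.1 (adjusted p = 0.0544), with limma-voom (0.0501), with DESeq2 (0.270) and without Utx KO replicate 2 (0.224), Utx KO replicate 3 (0.0810), WT replicate 1 (0.187) or WT replicate 2 (0.0969), against a lowest value of 0.0133. Stat5b was higher in Utx KO in all 16, with log2 fold changes of 0.30 to 0.50.

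Stat5a (ENSMUSG00000004043, 100859351 to 100885169, plus strand) was at 19.9, 21.1 and 15.4 CPM in Utx KO and at 15.8, 13.8 and 14.8 CPM in WT. Utx KO replicate 3 lay within the WT range, and the gene did not pass the test (log2 fold change 0.32, SE 0.21, limma adjusted p = 0.400, 95% interval of the fold 0.926 to 1.67). Its depth was low, at 25 to 50 reads per Utx KO library and 27 to 40 per WT library. Of the 50-nt pieces at its transcript ends, 8.3% occur in Stat5b, and its last 72 bases overlap the end of Stat3 on the other strand. No source used here says whether counting used strand, and without it reads of that stretch cannot be told apart.

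**Figure D2:**
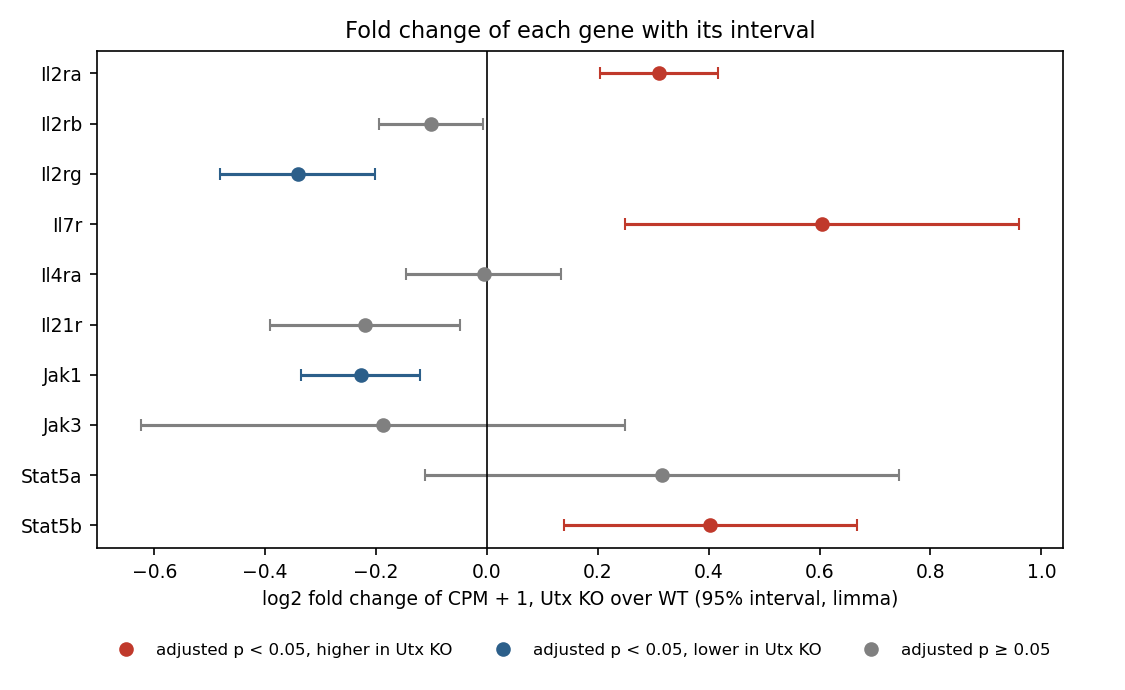
Log2 fold change of CPM + 1, Utx KO over WT, for each gene (horizontal axis), with the 95% interval from limma as bars. Il2ra, Il7r and Stat5b (red) are higher and Il2rg and Jak1 (blue) lower at an adjusted p under 0.05, and Jak3 and Stat5a have wide intervals that include 0.

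The order of levels differed between genotypes at 1 well-measured place, among the genes with the highest values. In Utx KO the order of mean CPM was Il2rb, Il2ra, Jak1, Il2rg, Il4ra, Il21r, Stat5b, Il7r, Stat5a and Jak3, and each gene's libraries lay above those of the next except for Stat5a and Jak3, which overlapped. In WT it was Il2rb, Jak1, Il2ra, Il2rg, Il4ra, Il21r, Stat5b, Il7r, Jak3 and Stat5a, with overlaps between Il7r and Jak3 and between Jak3 and Stat5a. Il2ra therefore stood above Jak1 in all 3 Utx KO libraries and below it in all 3 WT libraries. The place of Jak3 in both orders is uncertain, since tags of the stretch it shares with Insl3 cannot be assigned to either gene.

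Ratios within a library do not depend on its depth or scaling, and they are given here as descriptions without a test. Il2ra per Il2rb was 0.637, 0.678 and 0.662 in Utx KO and 0.527, 0.483 and 0.476 in WT, with no overlap. Il2ra per Il2rg was 2.32, 2.56 and 2.56 in Utx KO and 1.74, 1.46 and 1.54 in WT, and Il2ra per Jak1 was 1.17, 1.11 and 1.12 in Utx KO and 0.813, 0.780 and 0.746 in WT. These 2 ratios were chosen after the values were seen. The ratio of alpha chain RNA to that of the beta chain, the gamma chain and Jak1 was therefore higher in every Utx KO library. Il4ra per Il21r was also higher, at 1.80 to 1.90 in Utx KO and 1.45 to 1.72 in WT. Il7r per Il2ra overlapped, at 0.0443 to 0.0578 in Utx KO and 0.0373 to 0.0454 in WT. Stat5a per Stat5b did too, at 0.240 to 0.355 in Utx KO and 0.278 to 0.360 in WT, as did Jak1 per Jak3, at 32.1 to 36.9 in Utx KO and 30.6 to 43.7 in WT. Jak1 per Jak3 rests on 28 to 50 Jak3 reads per library and depends on how tags shared with Insl3 were assigned.

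**Figure D3:**
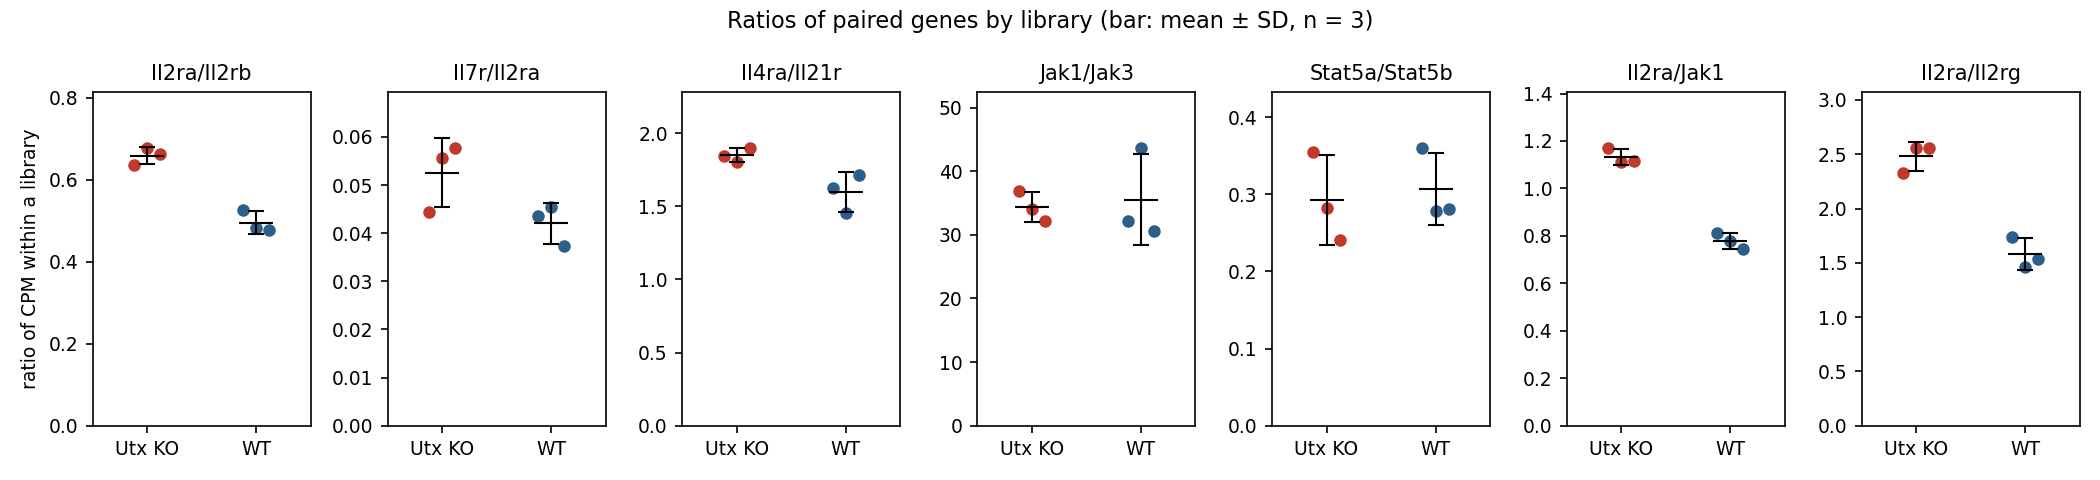
Ratio of CPM of 2 genes within each library (vertical axes, starting at 0), Utx KO (red) left of WT (blue), with the mean ± SD of 3 libraries in black. The ratios of Il2ra to Il2rb, Il2rg and Jak1 and of Il4ra to Il21r do not overlap between genotypes, while those of Il7r to Il2ra, Jak1 to Jak3 and Stat5a to Stat5b do.

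The remaining chains were below Stat5b in mean level, and the cytokines themselves were near 0. Crlf2, a chain of the TSLP receptor related to the gamma chain, was at 42.9, 33.7 and 43.2 CPM in Utx KO and at 48.6, 40.6 and 33.9 CPM in WT (limma adjusted p = 0.942). Il15ra, which presents IL-15, had 13, 7 and 2 reads in Utx KO and 17, 14 and 9 reads in WT (limma adjusted p = 0.224). Il9r had 1 read in a single Utx KO library and Il13ra1 none in any. Of 8 ligand genes only Il2 passed the filter, at 2.78, 3.43 and 1.85 CPM in Utx KO and at 2.37, 4.61 and 0.547 CPM in WT (limma adjusted p = 0.822). Il2 shares 55.0% of its 3' end pieces with Ntan1. In these 2 lists 0 genes passed with limma, DESeq2 or limma-voom, and 0 had an unadjusted limma p under 0.05. With edgeR 0 of the 2 tested chains passed, and its filter left no ligand to test.

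None of the other 7 JAK and STAT genes passed the test (0 with limma, edgeR, DESeq2 or limma-voom), although 6 of 7 had a log2 fold change below 0 and 2 had an unadjusted p under 0.05. Stat3, the main STAT of the IL-6 family, was at 219, 239 and 229 CPM in Utx KO and at 236, 261 and 247 CPM in WT (limma adjusted p = 0.355). Jak2, which serves other cytokine receptors, was called lower with the replicate block (adjusted p = 0.0428) and without Utx KO replicate 3 (0.0146).

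Among 20 genes that restrain JAK-STAT signalling, 3 rose and 2 fell, where 5.28% of all tested genes rose and 5.51% fell, and the median log2 fold change was 0.07 against 0.01 over all tested genes. Of the 3 that rose, 2 encode tyrosine phosphatases. Ptpn6, which encodes SHP-1, was at 195, 207 and 208 CPM in Utx KO and at 124, 125 and 131 CPM in WT, with a log2 fold change of 0.68 (SE 0.08, limma adjusted p = 9.57e-07). An exon of Gm20531 overlaps Ptpn6 on the opposite strand. Ptpn1, which encodes PTP1B, was at 400.0, 415 and 358 CPM in Utx KO and at 262, 267 and 289 CPM in WT (0.52, limma adjusted p = 7.56e-06). The groups were well apart for both. Ptpn2 and Ptprc, the other tyrosine phosphatase genes of the list, did not pass the test and were named after their values were seen. Ptpn2 overlapped between genotypes (log2 fold change 0.14, limma adjusted p = 0.445). Ptprc was lower in every Utx KO library than in any WT library (−0.12, limma adjusted p = 0.0524).

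Cish and Socs2 are feedback inhibitors that STAT5 itself induces, and they moved in opposite directions. Cish was at 174, 169 and 161 CPM in Utx KO and at 225, 208 and 209 CPM in WT, and fell by 0.35 on the log2 scale (SE 0.07, limma adjusted p = 0.00222); exons of Gm17040 and Gm17041 overlap it on the opposite strand. Socs2 was at 253, 230.2 and 235 CPM in Utx KO and at 164, 198 and 163 CPM in WT, and rose by 0.45 (SE 0.08, limma adjusted p = 0.000368), although 44.3% of its 3' end pieces occur in the gene models Gm8000 and Gm9847. Socs1 and Socs3, known to bind JAKs directly, overlapped between genotypes (135 ± 19.6 and 49.0 ± 10.8 CPM in Utx KO, 129.8 ± 21.2 and 43.6 ± 15.7 CPM in WT, SD, n = 3 each). The second fall was Cblb, a ubiquitin ligase (−0.45, limma adjusted p = 0.0286), named after its value was seen, as were Socs1 and Socs3. The fall of Cblb was lost in 5 of 16 alternatives: with DESeq2 (adjusted p = 0.233), without Utx KO replicates 2 or 3 (0.113 and 0.0810) and without WT replicates 1 or 3 (0.0911 and 0.123).

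Of 17 genes known as STAT5 targets in lymphocytes, 6 fell and 1 rose, where 5.51% of all tested genes fell and 5.28% rose, and the median log2 fold change was −0.14 against 0.01 over all tested genes. Cish and Socs2 belong to this list too. The falls with the lowest adjusted p were those of Prf1, the pore-forming perforin, at 23.0, 16.6 and 24.7 CPM in Utx KO and 72.0, 78.8 and 73.3 CPM in WT, and of Gzmb, granzyme B, at 905, 731 and 718 CPM in Utx KO and 1349, 1259.8 and 1239 CPM in WT. Their log2 fold changes were −1.77 and −0.72, with limma adjusted p of 9.02e-09 and 1.79e-08. Both are also targets of other regulators of effector cells. Lta, Ccnd2 and Mcl1 made up the other falls, named after their values were seen, with log2 fold changes of −0.38, −0.17 and −0.31, and the groups of Mcl1 overlapped. The fall of Ccnd2 held in all 16 alternatives. That of Lta was lost with DESeq2 (adjusted p = 0.0514) and without Utx KO replicate 3 (0.105). That of Mcl1 was lost in 6: with a pseudocount of 0.1 (0.0513), with DESeq2 (0.121) and without Utx KO replicates 2 or 3 (0.118 and 0.121) or WT replicates 1 or 2 (0.212 and 0.141). Survival and growth genes of the list that did not pass included Bcl2, at 1175, 1209.7 and 1245 CPM in Utx KO and 1229.7, 1240.5 and 1264 CPM in WT, and Pim1, at 864, 811 and 808 CPM in Utx KO and 906, 839 and 897 CPM in WT, both picked after their values were seen.

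Downstream of the receptor, adaptor, PI3-kinase and MAP-kinase genes gave 2 rises and 2 falls among 16, where 5.28% of all tested genes rose and 5.51% fell. Their median log2 fold change was −0.10 against 0.01 over all tested genes. Pik3cd, the catalytic PI3-kinase delta subunit of leukocytes, was at 639, 699.7 and 725 CPM in Utx KO and at 863, 887 and 855 CPM in WT (log2 fold change −0.34, SE 0.05, limma adjusted p = 5.7e-05). Pik3r1, its regulatory subunit, was at 85.4, 89.1 and 91.4 CPM in Utx KO and at 119, 131 and 118 CPM in WT (−0.46, limma adjusted p = 0.00113). Both were lower in every Utx KO library. Pik3ca, the catalytic alpha subunit and the third PI3-kinase gene of the list, was at 50.05, 57.1 and 61.1 CPM in Utx KO and at 51.8, 50.7 and 50.9 CPM in WT, with overlapping groups (log2 fold change 0.13, limma adjusted p = 0.602), and was named after its values were seen. Mapk3, which encodes ERK1, and the adaptor Gab2 rose by 0.38 and 1.04, with limma adjusted p of 0.0187 and 0.0366. Both rises were lost with DESeq2 (adjusted p of 0.132 and 0.260) and without WT replicate 2 (0.0569 and 0.214). Without Utx KO replicate 2 or WT replicate 1 the rise of Mapk3 was lost as well (0.132 and 0.0821). The rise of Gab2 was also lost without Utx KO replicates 1 or 3 or WT replicate 3 (0.0901, 0.143 and 0.0601), with a pseudocount of 0.1 (0.0511) and without the filter (0.0637).

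**Figure D4:**
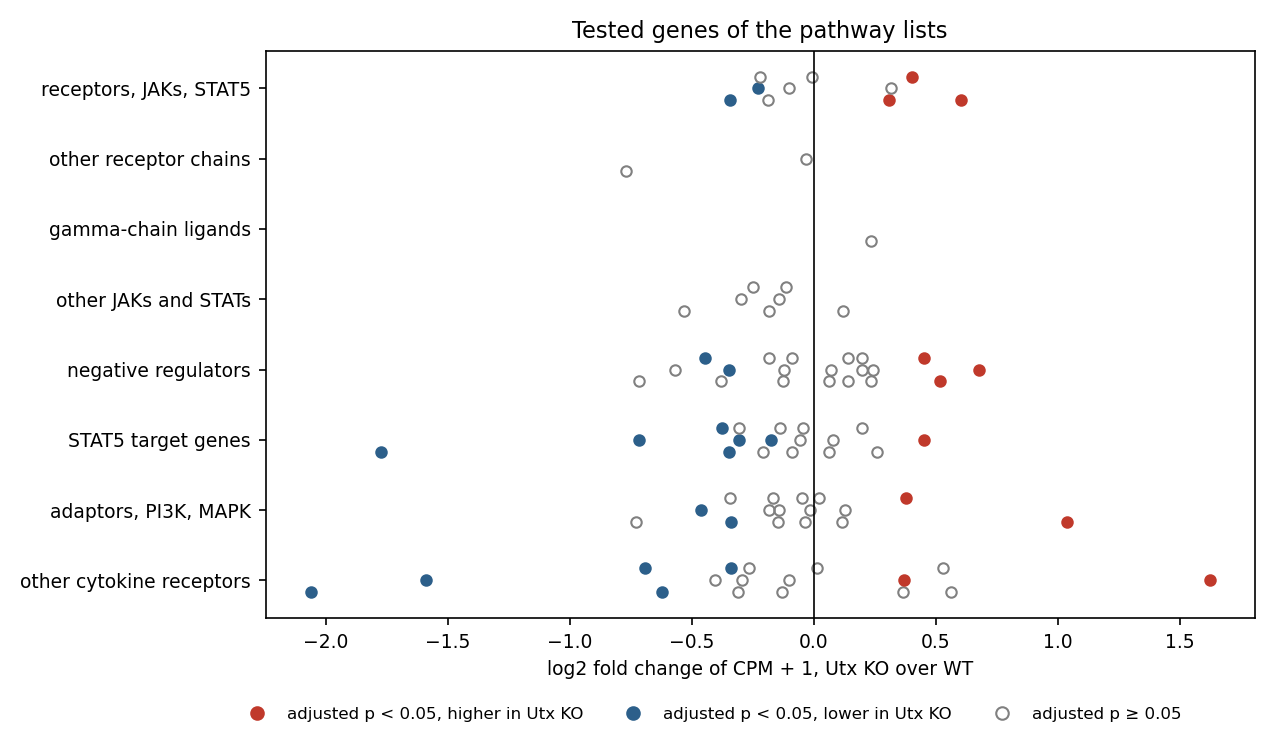
Log2 fold change of CPM + 1, Utx KO over WT, for the tested genes of each list (horizontal axis), filled where the adjusted p is under 0.05 (red higher, blue lower in Utx KO) and open otherwise. The 10 receptor, JAK and STAT5 genes span −0.34 to 0.60, and the STAT5 target list holds 6 falls and 1 rise. Il2ra, also a STAT5 target, is plotted with the 10 genes and not in that list.

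The calls of Il2ra, Il2rg and Jak1 held under all 16 alternatives, with adjusted p of 7.49e-05 to 0.00261, 0.000282 to 0.0164 and 0.00301 to 0.0365. Those of Il7r and Stat5b did not, as the plot of adjusted p over settings shows. Without Utx KO replicate 2 or without Utx KO replicate 3, the count of members called was 3 (1 higher and 2 lower) in place of 5, while the count over all genes was 831 of 10401 without replicate 2 and 925 of 10428 without replicate 3, in place of 1142 of 10590.

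**Figure D5:**
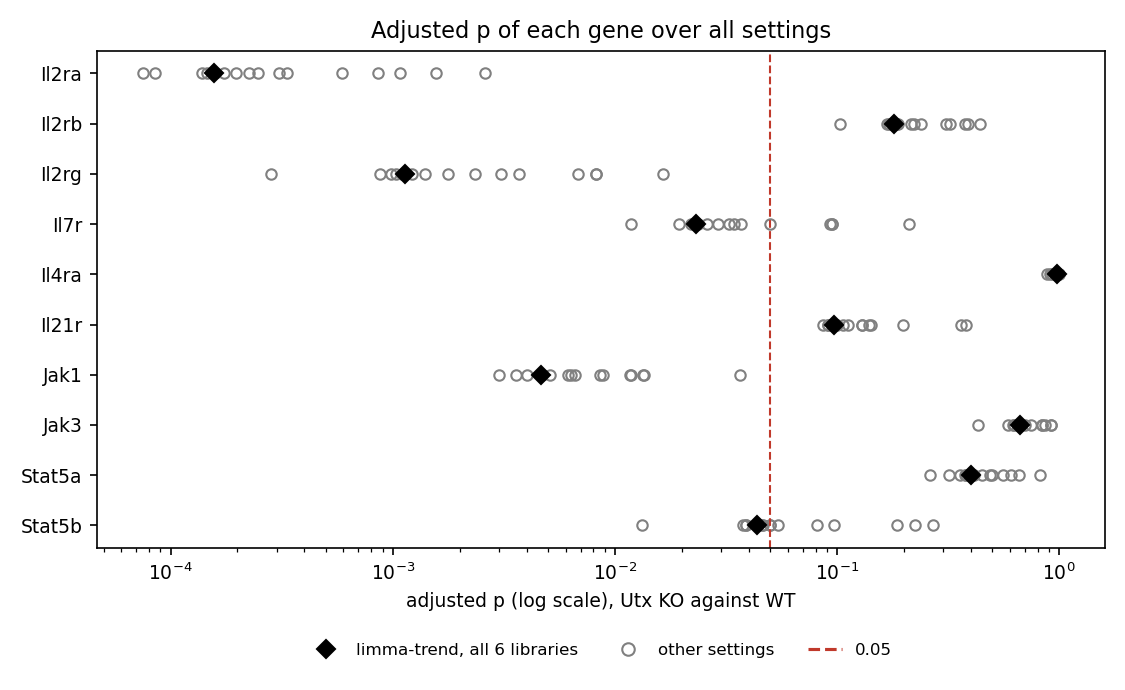
Adjusted p for Utx KO against WT on a log axis for each gene, from limma-trend on all 6 libraries (diamond) and from 16 other settings (open circles), with 0.05 as a dashed line. Il2ra, Il2rg and Jak1 lie left of the line in every setting, Il7r and Stat5b lie on both sides, and the other 5 genes lie right of it in every setting.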

How the data were processed

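The authors deposited a CPM value for each of 25655 Ensembl genes, as the file headers and the equal totals of all libraries show. QuantSeq 3' libraries were made from 500 ng of total RNA, per the labels' protocols. The submitters' processing notes name GRCm38 and mm10, with the aligner, counter, strand setting and filters not given in the sources used here. All CPM values above 0 were whole multiples of 1 read (100% within 0.001 reads), so reads could be recovered for edgeR (4.0.16), DESeq2 (1.42.0) and limma-voom as alternatives.

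Genotypes were compared with limma-trend (limma 3.58.1, R 4.3.3) on log2(CPM + 1) with no covariate. Genes needed 1 CPM or more in 3 libraries, which 10590 had, and tests were two-sided, with Benjamini-Hochberg adjustment over all of them. Fold changes on this scale understate those of low genes. A count of 0 allows up to 1.19 to 1.85 CPM in Utx KO and 1.19 to 1.64 CPM in WT (3 reads, counting error only). The labels call samples biological replicates but tie none to an animal, and p-values reflect only how these samples vary, which may be technical. No 2 libraries of a genotype were alike within sampling noise (chi-square over its degrees of freedom, 1.33 to 1.99).

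Symbols matched 25600 of 25655 identifiers. Coordinates, exon overlaps and shared 3' ends (50-nt pieces of the last 300 nt of protein-coding transcripts) come from GENCODE M21, promoters from RefSeq. The members and lists were chosen with earlier results of these data known. Named list genes are up to 4 with the lowest adjusted p under 0.05 per list, or else the 2 most abundant (Il4, the other ligand so chosen, had 1 read in all, and 1 gene so chosen is not reported here); other list genes are marked as picked after their values were seen, or named for a count of 5 or fewer (Jak2). Alternatives were 2 other pseudocounts, 2 other filters, TMM scaling, the 3 tools on reads, a replicate block, each library left out and, added after seeing the data, Jak3 and Insl3 summed. The procedure was tested on simulated data. The planted changes were all larger than those of Il2ra, Il2rg, Jak1 and Stat5b, so changes of that size were not covered.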

Additional observations from a re-analysis of the deposited data

How the results depend on the processing

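Of 16 alternatives, 1 was chosen after seeing the data. That alternative, Jak3 and Insl3 summed, changed the values of no other gene, so it could not test the calls of other genes. The count of changed genes (1142) was 551 with DESeq2 on recovered reads, and 747 to 1056 when a library was left out, the lowest without WT replicate 2. The count of members changed (5) was 3 with DESeq2 and 3 to 5 when a library was left out. Over the left-out libraries the log2 fold change of Il4ra ran from −0.025 to 0.029, of Crlf2 from −0.16 to 0.10, of Socs1 from −0.051 to 0.184 and of Il2 from −0.26 to 0.67, so their signs changed. The list of adaptors, PI3-kinase and MAP-kinase genes had 2 calls in place of 4 with DESeq2 or without WT replicate 2, and that of other cytokine receptors 4 in place of 7 with DESeq2. The cause of these changes was not tested. The median log2 fold change of all genes lay between −0.00158 and 0.0155 in every setting.

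Replicate numbers pair no samples in the labels, and same-numbered libraries did not deviate together (r of deviations 0.00602, −0.00272 and −0.00963 for numbers 1, 2 and 3), nor did every library correlate best with its own number. The fit with a replicate block called 1065 genes and the same number of members (5). Stat5a, Jak3 and Il7r, with 25 to 69 reads per library, are limited by depth. Jak3 is also limited by tags of the stretch it shares with Insl3, which cannot be assigned to either gene.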

Other observations

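Receptors for cytokines outside the gamma-chain family were read from the same fit, and 5 of 17 fell and 2 rose, where 5.51% of all tested genes fell and 5.28% rose. Their median log2 fold change was −0.26 against 0.01 over all tested genes. Il12rb1, a chain of the IL-12 and IL-23 receptors, was at 18.3, 12.6 and 14.8 CPM in Utx KO and at 41.1, 48.4 and 53.1 CPM in WT, and fell by 1.59 on the log2 scale (SE 0.18, limma adjusted p = 7.43e-07). Il18rap, a chain of the IL-18 receptor, was at 37.7, 35.4 and 32.1 CPM in Utx KO and at 60.9, 55.8 and 47.6 CPM in WT (−0.62, limma adjusted p = 0.0032). Il1rl1, the IL-33 receptor, had 1, 6 and 3 reads in Utx KO and 23, 19 and 22 reads in WT (−2.06, limma adjusted p = 0.000614). In each of the 3, every Utx KO library lay below every WT library.

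Il6ra, the IL-6 receptor chain, rose, with 17, 14 and 9 reads in Utx KO and 2, 5 and 3 reads in WT (1.62, limma adjusted p = 0.00413), a call lost with DESeq2 (0.0592). The remaining called genes, named after their values were seen, were Il10ra and Il18r1, which fell by 0.69 and 0.34, and Ifnar2, which rose by 0.37. With DESeq2 the calls of Il10ra and Ifnar2 were lost (adjusted p of 0.0706 and 0.0533), and that of Il18r1 was lost without Utx KO replicate 1 (0.0556) or WT replicate 2 (0.0774). Gamma-chain receptor genes and these receptors thus both held changes in each direction, and whether the lists differ was not tested.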
